A study of Mus musculus with 7 samples.

Results

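RNA levels of amino acid transporters of the plasma membrane and the lysosome were measured by sequencing in brown adipose tissue of 7 mice. This fat depot burns fuel to make heat. The mice were of the strain NOD/ShiLtJ, which is prone to autoimmune diabetes. The genes are the protein-coding rows of the deposited count table whose symbols start with Slc1a, Slc3a, Slc6a, Slc7a, Slc36a, Slc38a or Slc43a, with Slc6a8 left out. That rule gives 63 of 55487 genes in the table: 7 of the Slc1 family, 2 of Slc3, 20 of Slc6, 16 of Slc7, 4 of Slc36, 11 of Slc38 and 3 of Slc43. It goes by symbol, so it also takes in genes whose products do not carry amino acids, and these are named below.

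CB-100 was given to 4 mice and sham treatment to 3. CB-100 is the part above 100 kDa of buffer conditioned by brown adipocytes, and the sham mice were given KRBH buffer. All mice were NOD/ShiLtJ with no other allele given, and no age is given. Mice whose blood glucose lay between 190 and 230 mg/dL received CB-100 under the skin for 7 days at 1.5 mg per kg of body weight, and tissue was collected 2 to 8 weeks later, with no week given for each mouse. The sham samples carry the same protocol text, without a schedule of their own. The titles add a code, nd for CB-100 and d for sham, that is not spelled out, and what it marks cannot be told apart from the treatment. The titles also carry animal codes, and no other label says that the replicates are separate animals, so the p-values cover the spread among these samples, which may be technical.

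Each library held 10815073 to 28528421 counts. The makeup of the libraries separated the groups: 7SL and 7SK RNA took 9.54% to 14.4% of counts in CB-100 and 5.89% to 8.35% in sham, and protein-coding genes 76.2% to 80.0% in CB-100 and 83.0% to 86.5% in sham. With 7SL, 7SK and mitochondrial genes left out of the fit described below, 679 genes were called in place of 622, and Slc1a4 was still the transporter gene called. Levels are given as CPM, the usual depth-scaled count unit, on library totals scaled by the trimmed mean of M values (TMM), and as CPM per kilobase of exon where genes are compared with each other. Sex, read from Xist and Y-linked genes, was male for CB-100 replicate 3 and sham replicate 3 and female for the others. Brown adipocyte markers (10, among them Ucp1 and Prdm16) and adipocyte markers (6) were all present. Their summed levels overlapped between the groups, given here with CB-100 before sham. The brown adipocyte list summed to 1523 to 3762 against 1313 to 2451 CPM, and the adipocyte list to 4836 to 6752 against 6621 to 11307 CPM. For the adipocyte list the overlap rested on CB-100 replicate 4 (6752 CPM) and sham replicate 1 (6621 CPM). In that list 1 of 6 log2 estimates lay above 0 (Plin1), the median was -0.67, and 0 genes were called. Adipoq (359 to 375 against 484 to 808 CPM) and Lipe (592 to 919 against 1072 to 1400 CPM) were lower in CB-100 without overlap. Summed skeletal muscle markers ranged widely in both groups, from 245 to 1808 CPM in CB-100 and 693 to 1576 CPM in sham. The 7 Schwann cell and nerve markers summed to 96.3 to 133 CPM in CB-100 and 57.6 to 66.0 CPM in sham, without overlap. The part of these lists in the results below was not tested, apart from the muscle score used as a covariate. In whole tissue, fewer cells of a type and less RNA per cell cannot be told apart.

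Amino acids cross membranes through a few large carrier families. Slc1 carriers take up glutamate or exchange neutral amino acids, while Slc6 and many Slc38 carriers couple uptake to sodium. Slc36 carriers move small amino acids with protons, and Slc43 carriers let branched-chain amino acids through by facilitated diffusion. Many Slc7 carriers are light chains that reach the membrane only when bound to the Slc3 heavy chain Slc3a2, also called CD98 or 4F2hc. When amino acids run short, the kinase Gcn2 raises translation of the transcription factor Atf4, which induces several of these carriers through C/EBP-ATF response elements. Brown fat burns branched-chain amino acids when it makes heat, and the proton-coupled carrier Slc36a2 is used as a surface marker of brown and beige adipocytes.

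Promoter windows of 46 of the 63 genes, from 250 bases before to 50 after each start, were found in RefSeq on GRCm38.p6. The C/EBP-ATF response element was searched as TGATGNAA on both strands, so that an antisense match reads TTNCATCA. It was present in 4 of the 46 genes (8.70%), against 4.51% of all 27025 genes and 3.97% of all 32851 windows. The genes were Slc1a4, Slc6a21, Slc7a7 and Slc7a11. Slc1a4 is shown with its whole window because it was the only gene of the 7 families called by the main edgeR test below. Slc7a11 and Slc7a7 are shown around matches with the same letters. A further Slc7a7 match, TGATGAAA, 141 bases before the same start, lies outside the stretch shown. All 3 lie on the minus strand, are written 5′ to 3′ along the gene, and carry the matches in capitals.

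Slc1a4, chr11:20332664-20332963, match 4 bases before the start: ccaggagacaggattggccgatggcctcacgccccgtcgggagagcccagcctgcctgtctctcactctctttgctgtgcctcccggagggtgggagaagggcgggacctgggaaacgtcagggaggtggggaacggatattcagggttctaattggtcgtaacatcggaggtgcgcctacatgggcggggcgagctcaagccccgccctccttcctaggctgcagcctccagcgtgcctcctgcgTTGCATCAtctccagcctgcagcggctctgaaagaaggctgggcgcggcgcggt
Slc7a11, chr3:50443639-50443698, matches 66 and 47 bases before the start: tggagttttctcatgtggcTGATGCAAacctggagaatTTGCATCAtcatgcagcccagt
Slc7a7, chr14:54417927-54417966, match 1 base before the start: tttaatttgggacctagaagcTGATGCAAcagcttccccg

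Slc7a7 has more than 1 annotated start, and the match shown is counted from the upstream one. Each distance is that of the first base of a match, so the Slc1a4 and Slc7a7 matches shown run across the start. The Slc1a4 match runs antisense, the Slc7a7 match sense, and the 2 Slc7a11 matches run in opposite directions. These are matches of letters in a window and not sites of binding. None of the 4 genes' matches overlaps a match of the other motifs searched. The antioxidant response element TGACNNNGC was found in 9 of the 46 genes, against 14.0% of all genes. The E-box CACGTG was also found in 9, against 8.09%, and the cyclic AMP response element TGACGTCA in 1 (Slc38a6), against 2.03%.

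Slc36a2, Slc1a5 and Slc6a6 dominated the RNA of the 63 genes in both groups. Per kilobase of exon, Slc36a2 averaged 137 CPM over the 7 libraries and ranked first in all 7. Slc1a5, the neutral amino acid exchanger ASCT2 that brings in glutamine, averaged 79.0 and was second in 6. Slc6a6, the taurine transporter, averaged 32.5 and had rank 3 in 6. Together these 3 made up 54.3% to 74.5% of the summed level per kilobase of the 63 genes in each library. Next came Slc3a2 at 14.5, Slc38a10 at 14.5, Slc1a3 at 14.3 and Slc38a2 at 13.4 CPM per kilobase, whose order is not firm, since each stood above the next in only 4 of 7 libraries. Slc7a6, the light chain y+LAT2, followed at 10.9. In all, 8 genes averaged at least 10 CPM per kilobase and 22 at least 1. The sum over all 63 genes was 386 ± 24.2 CPM per kilobase in CB-100 (SD, n = 4) and 356 ± 28.2 in sham (SD, n = 3), and the groups overlapped.

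**Figure D1:**
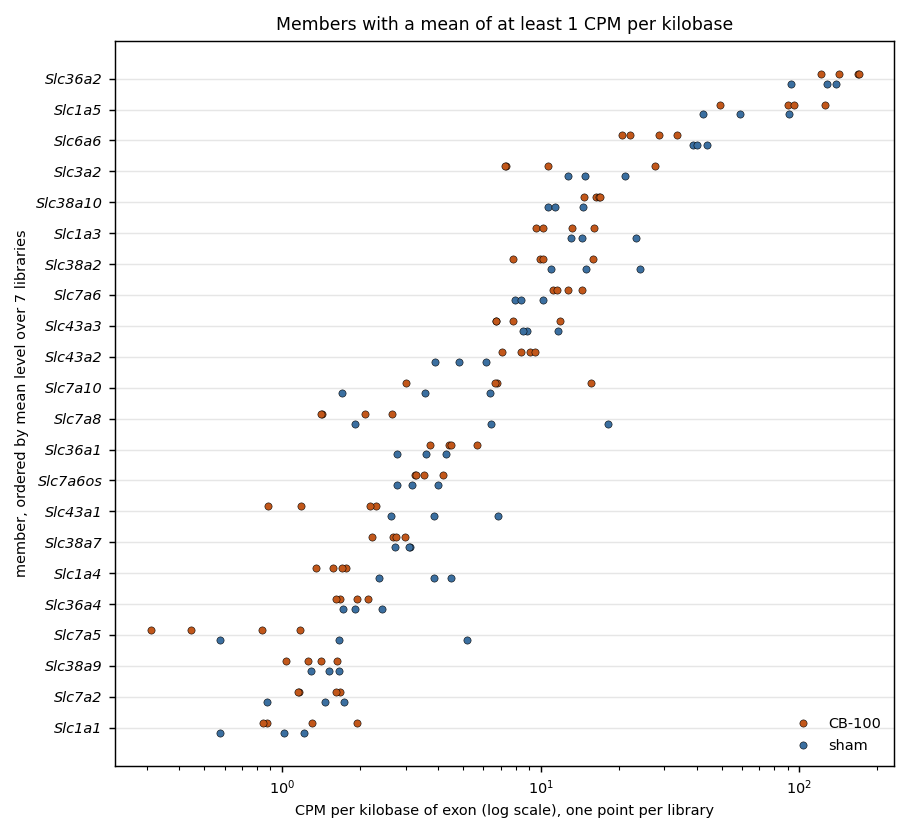
Level of each transporter gene with a mean of at least 1 CPM per kilobase of exon (log axis), 1 point per library, CB-100 above sham for each gene. Slc36a2 is highest, Slc1a5 and Slc6a6 follow, and the sham points of Slc6a6 and Slc1a4 lie right of all their CB-100 points.

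The comparison of CB-100 with sham asks how brown fat RNA differs after injection of large material released by brown adipocytes. Of the 63 genes, 35 passed the filter on low counts and were tested with edgeR's quasi-likelihood test, and 28 did not pass. Of the 35, 0 were called higher and 1 lower, Slc1a4, at an adjusted p under 0.05. DESeq2 called 1 gene higher (Slc43a2) and 5 lower (Slc1a4, Slc43a1, Slc6a6, Slc7a5 and Slc7a8) among 35 with an adjusted p, where it called 4.63% of all genes higher and 6.13% lower. Limma voom called 1 higher (Slc43a2) and 3 lower (Slc1a4, Slc43a1 and Slc6a6), where it called 2.88% of all genes higher and 4.33% lower. The edgeR call is 2.86% of the 35, against 3.7% of all 16823 genes tested, of which 1.42% were called higher and 2.28% lower. At an unadjusted p under 0.05 stood 9 of the 35 (25.7%), against 23.9% of all genes tested. Groups without overlap were found for 5 genes higher in CB-100 (Slc43a2, Slc38a6, Slc7a6, Slc38a10 and Slc7a7; 14.3%, against 11.1% of all genes) and for 3 lower (Slc1a4, Slc43a1 and Slc6a6; 8.57%, against 12.2%). Estimates lay above 0 for 18 and below 0 for 17, with a median log2 change of 0.04, beside 0.03 over all genes tested. The edgeR shares and the shares without overlap were each near those of all genes tested. Genes called lower by DESeq2 and by limma voom made up a larger share of the 35 than of all genes. Family medians ran from -0.29 for the 1 tested Slc3 gene to 0.33 for the 3 tested Slc36 genes, with Slc1 at -0.03 (4 genes), Slc6 at 0.07 (6), Slc7 at 0.07 (10), Slc38 at 0.09 (8) and Slc43 at -0.22 (3).

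**Figure D2:**
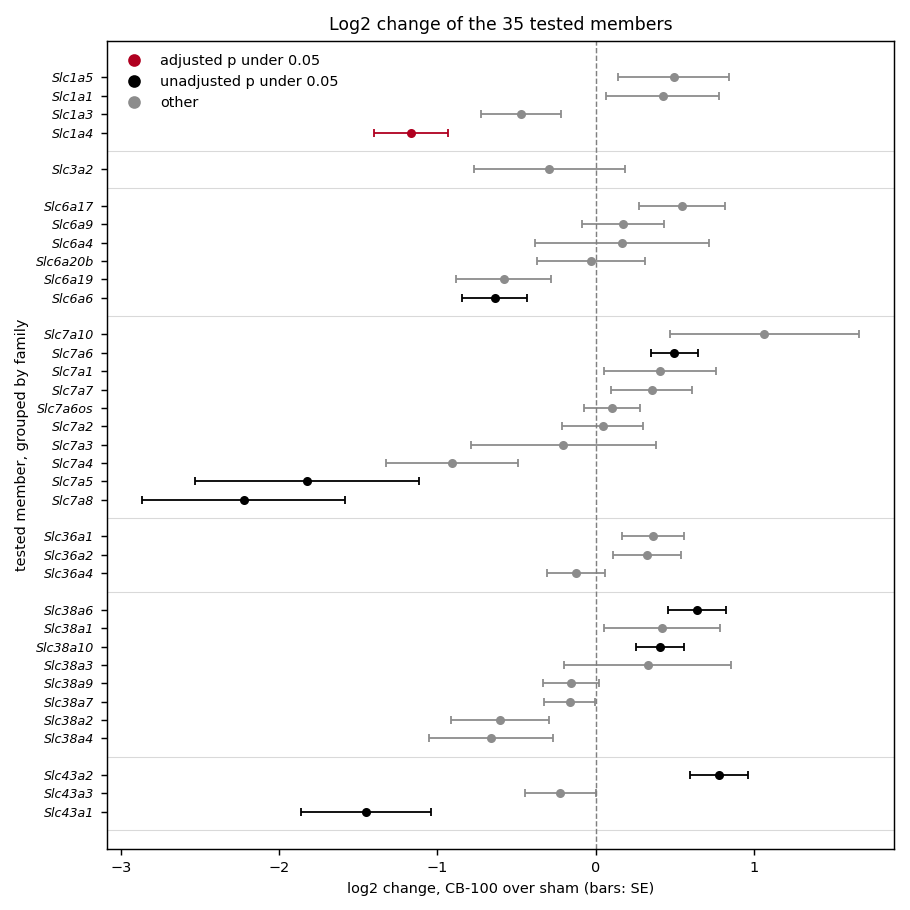
Log2 change, CB-100 over sham, of the 35 tested genes by family (points) with its SE (bars); red marks an adjusted p under 0.05 and black an unadjusted p under 0.05. Slc1a4 at -1.17 is the only red point, and the widest bars belong to Slc7a5, Slc7a8 and Slc7a10 among the genes beyond 1 in size.

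Slc1a4 (ENSMUSG00000020142), which encodes ASCT1, an exchanger of alanine, serine, cysteine and threonine, was lower in brown fat of CB-100 mice. Its level was 5.29, 6.94, 6.69 and 6.19 CPM in CB-100 replicates 1 to 4, against 17.7, 9.28 and 15.2 CPM in sham replicates 1 to 3. All 4 CB-100 libraries lay within a narrow band below every sham library, while the sham libraries were more widely spread. The means were 6.28 ± 0.73 CPM in CB-100 (SD, n = 4) and 14.1 ± 4.31 CPM in sham (SD, n = 3), 2.24-fold lower in CB-100. The log2 change was -1.17 with an SE of 0.23, and the adjusted p was 0.037 by edgeR's quasi-likelihood test. The gene lies at chr11:20302180-20332713 on the minus strand of GRCm38, no other gene overlaps it, and its counts are whole numbers. Leaving out 1 library kept the log2 change between -1.39 and -0.98. The call held without CB-100 replicate 4 or sham replicate 2 and was lost without any of the other 5 libraries, where the adjusted p reached at most 0.14. In females alone, with sex as a covariate and with the muscle score as a covariate Slc1a4 was also not called.

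The other Slc1 genes did not pass the test. Slc1a5, the close relative of Slc1a4, stood at 377, 526, 396 and 206 CPM in CB-100 and 176, 379 and 246 CPM in sham. These ranges overlap, and the log2 change of 0.49 had an SE of 0.35 (edgeR adjusted p = 0.42). Slc1a3, the glutamate transporter GLAST, stood at 113, 137, 81.7 and 87.0 CPM in CB-100 and 124, 112 and 200 CPM in sham, with a log2 change of -0.47 (edgeR adjusted p = 0.29). Slc1a1, the glutamate and cysteine transporter EAAC1, had a log2 change of 0.42 (edgeR adjusted p = 0.50), and part of its exon sequence is shared with a gene on the opposite strand. The glutamate transporters Slc1a2, Slc1a6 and Slc1a7 were too low to test.

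Among the heterodimeric transporters, levels of the heavy chain Slc3a2 and of its light chains differed from library to library. Slc3a2 stood at 25.8, 37.7, 25.7 and 97.1 CPM in CB-100 and 74.9, 52.2 and 44.8 CPM in sham. CB-100 replicate 4 was above every sham library and the other 3 CB-100 libraries were below them all. The log2 change of Slc3a2 was -0.29 with an SE of 0.48 (edgeR adjusted p = 0.75). CB-100 replicate 4 also had the largest mitochondrial share of counts (36.3%) and the smallest TMM factor (0.755). Its summed endothelial (1476 CPM) and erythroid (4086 CPM) markers were the highest of all libraries. The part of these differences was not tested.

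The light chain Slc7a8, or LAT2, which exchanges large and small neutral amino acids, had the largest estimate among the 35 genes. It stood at 13.3, 10.4, 7.12 and 7.07 CPM in CB-100 and at 90.8, 9.55 and 32.1 CPM in sham. Sham replicate 2 lay inside the CB-100 range and sham replicate 1 far above all other libraries. The log2 change was -2.23 with an SE of 0.64, and the gene did not pass the test (edgeR adjusted p = 0.088). Without sham replicate 1 the log2 change was -1.15, and without sham replicate 2 it was -2.70 and called. The related light chain Slc7a5, or LAT1, which brings in leucine and other large neutral amino acids, had 1.65, 3.11, 1.15 and 4.33 CPM in CB-100 and 19.2, 2.13 and 6.16 CPM in sham. It showed the same order of sham libraries, with replicate 1 highest and replicate 2 lowest, and its groups also overlapped. Its log2 change of -1.83 had an SE of 0.71 (edgeR adjusted p = 0.17), and without sham replicate 1 it was -0.70 (edgeR adjusted p = 0.54). DESeq2 called both light chains lower, with an adjusted p of 0.032 for Slc7a8 and 0.039 for Slc7a5, and limma voom called neither. Sham replicate 1 was high in the same way for the stress-induced gene Ddit4, which had 8.51, 12.8, 16.8 and 13.9 CPM in CB-100 and 155, 21.2 and 8.98 CPM in sham. Sham replicate 1 also had the smallest mitochondrial share of counts (14.3%) and the largest TMM factor (1.25) of the 7 libraries. Whatever sets that library apart was not tested.

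Slc7a6, or y+LAT2, which exchanges cationic for neutral amino acids, went the other way. It stood at 50.8, 65.8, 52.8 and 58.4 CPM in CB-100 and 36.3, 46.4 and 38.5 CPM in sham. Every CB-100 library was above every sham library, and the log2 change was 0.50 with an SE of 0.15, short of the threshold (edgeR adjusted p = 0.090). Slc7a7, or y+LAT1, was low, with 2.09 to 2.50 CPM in CB-100 and 1.55 to 1.93 CPM in sham. Those ranges do not overlap, yet the estimate of 0.35 had an SE of 0.26 (edgeR adjusted p = 0.43), and its counts are uncertain because Oxa1l overlaps its exons on the opposite strand. Slc7a10, or asc-1, a carrier of small neutral amino acids used as a surface marker of white adipocytes, had 14.3, 14.1, 6.33 and 32.9 CPM in CB-100 and 3.59, 13.4 and 7.52 CPM in sham. Its log2 change of 1.07 had an SE of 0.60 (edgeR adjusted p = 0.31), the groups overlapped, and its counts are uncertain because Lrp3 overlaps it on the opposite strand. Slc7a11, or xCT, which takes up cystine in exchange for glutamate, was below 1 CPM in all 7 libraries and was not tested.

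Set against each other per kilobase, Slc7a6 was the leading light chain in 5 of 7 libraries. Slc7a10 led in CB-100 replicate 4 with 49.3% of the summed light chain level, and Slc7a8 led in sham replicate 1 with 54.0%. The share of Slc7a8 was 12.2%, 8.43%, 8.41% and 4.46% in CB-100 and 54.0%, 9.76% and 31.2% in sham. Sham replicate 2 again fell within the CB-100 range. The level of Slc3a2 over the summed light chains was 0.336, 0.433, 0.431 and 0.870 in CB-100 and 0.632, 0.757 and 0.618 in sham, with CB-100 replicate 4 above and the other 3 CB-100 libraries below the sham values. This ratio is one of RNA levels and says nothing of protein pairs.

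**Figure D3:**
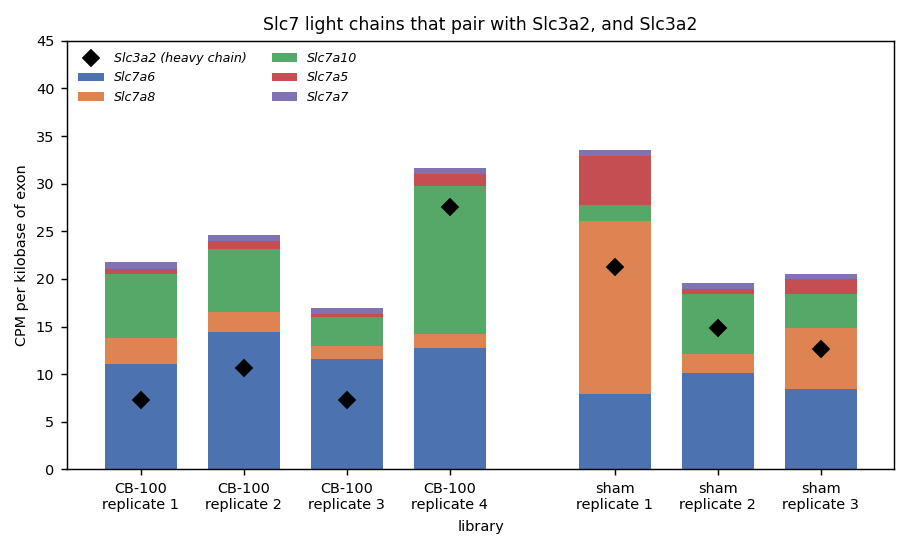
Stacked level of the light chains that pair with Slc3a2 (bars, CPM per kilobase of exon) and of Slc3a2 (diamonds) in each library, CB-100 on the left. Slc7a6 is the largest segment in 5 libraries, Slc7a10 in CB-100 replicate 4 and Slc7a8 in sham replicate 1; Slc7a11, below 1 CPM throughout, is not drawn.

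The Slc7 carriers that work without a heavy chain did not pass the test. Slc7a1, the arginine and lysine carrier CAT1, had a log2 change of 0.41 (edgeR adjusted p = 0.51). Slc7a2, or CAT2, was at 0.04 and Slc7a3, or CAT3, at -0.20, both with an edgeR adjusted p above 0.8. Slc7a4, a relative of these carriers, was at -0.91 (edgeR adjusted p = 0.22), and P2rx6 overlaps its exons. Slc7a6os shares a name with its neighbour Slc7a6 but encodes a nuclear import factor of RNA polymerase II and no transporter, and its log2 change was 0.10 (edgeR adjusted p = 0.76). The second heavy chain, Slc3a1 or rBAT, was below 1 CPM in every library, and its partner Slc7a9 was at 0 in all 7.

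In the Slc43 family, which carries branched-chain amino acids, the 2 carriers had estimates on opposite sides of 0. Slc43a1, or LAT3, had 13.2, 12.5, 6.76 and 5.02 CPM in CB-100 and 22.1, 15.1 and 39.0 CPM in sham. Slc43a2, or LAT4, had 90.8, 84.4, 71.0 and 95.0 CPM in CB-100 and 39.3, 61.6 and 48.4 CPM in sham. Neither pair of groups overlapped, with CB-100 lower for Slc43a1 and higher for Slc43a2. The log2 change of Slc43a1 was -1.45 with an SE of 0.41 (edgeR adjusted p = 0.081), and that of Slc43a2 was 0.78 with an SE of 0.18 (edgeR adjusted p = 0.052), so that neither passed. DESeq2 called both, with an adjusted p of 0.0079 for Slc43a1 and 0.0066 for Slc43a2, and so did limma voom, with 0.048 for Slc43a1 and 0.043 for Slc43a2. Per kilobase, Slc43a2 over Slc43a1 was 3.93, 3.84, 5.98 and 10.8 in CB-100 and 1.01, 2.32 and 0.707 in sham. With both genes separated in opposite directions, this ratio had to separate the groups, so it adds no further evidence. Slc43a2 has non-whole counts in all 7 libraries and a gene model, Gm45606, on the opposite strand of its exons, which leaves its level uncertain. The remaining gene, Slc43a3, encodes a nucleobase transporter rather than an amino acid carrier and had a log2 change of -0.22 (edgeR adjusted p = 0.58).

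**Figure D4:**
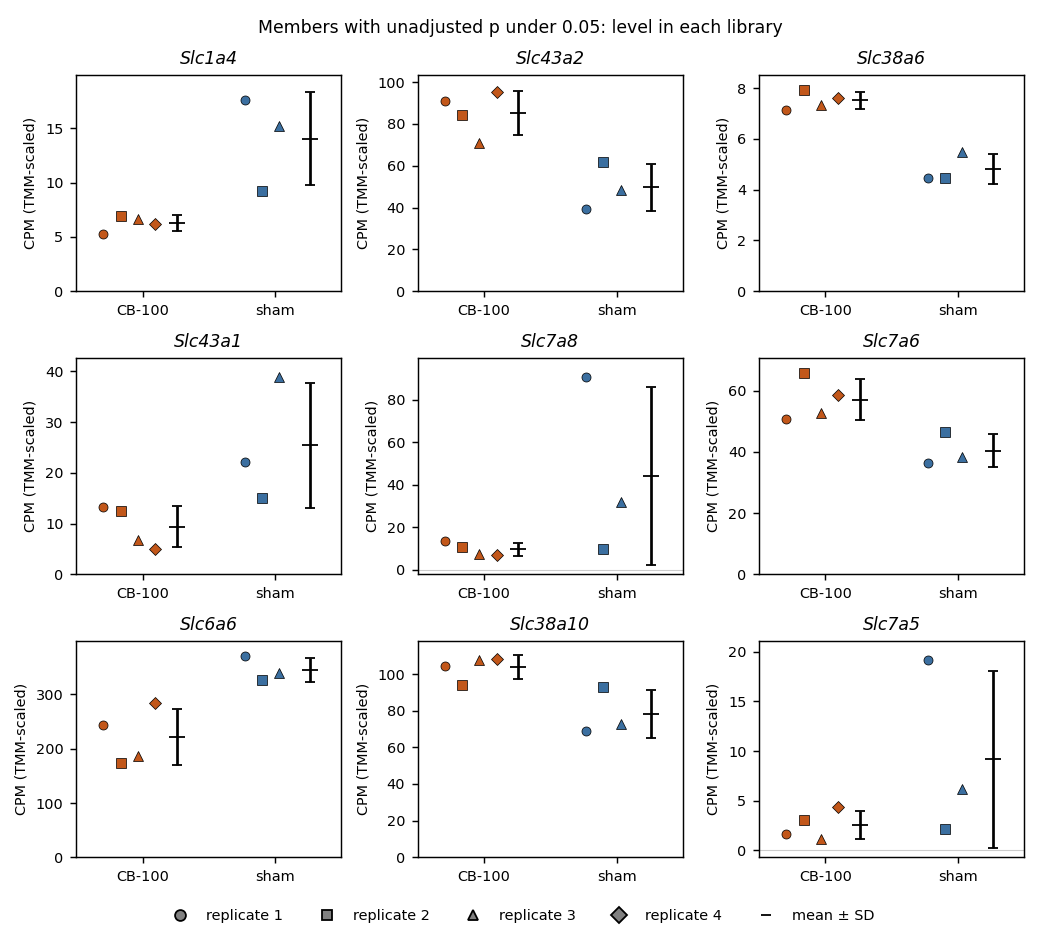
CPM in each library (points, shape by replicate, CB-100 left of sham) with mean ± SD, for the 9 transporter genes with an unadjusted p under 0.05. CB-100 and sham points overlap for Slc7a8 and Slc7a5 and do not overlap for the other 7 genes.

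Slc36a2, the most abundant of the 63 genes, stood at 547, 461, 553 and 394 CPM in CB-100 and 303, 452 and 415 CPM in sham. CB-100 replicate 4 was below 2 of the sham libraries, and the log2 change of 0.33 had an SE of 0.22 (edgeR adjusted p = 0.39). Slc36a1, the lysosomal proton-coupled carrier PAT1, was at 0.36 (edgeR adjusted p = 0.29), and both have non-whole counts in all 7 libraries. Slc36a4, or PAT4, was at -0.13 (edgeR adjusted p = 0.71), and Slc36a3 was too low to test.

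Of the 8 tested Slc38 genes none passed the test. Slc38a2, or SNAT2, a carrier of alanine and glutamine that is induced when amino acids run short, had 87.6, 90.3, 69.2 and 141 CPM in CB-100 and 213, 133 and 96.6 CPM in sham. The groups overlapped, and the log2 change was -0.60 with an SE of 0.31 (edgeR adjusted p = 0.27). Slc38a6, whose substrates are less well known, had 7.15, 7.95, 7.33 and 7.63 CPM in CB-100 and 4.48, 4.47 and 5.50 CPM in sham. The CB-100 libraries were all higher and close to each other, with a log2 change of 0.64 and an SE of 0.18 (edgeR adjusted p = 0.081). Counts of Slc38a6 are non-whole in 3 libraries. Slc38a10 had 105, 94.2, 108 and 108 CPM in CB-100 and 68.7, 93.1 and 72.8 CPM in sham. Its groups were separated by a small gap between CB-100 replicate 2 and sham replicate 2, its log2 change was 0.41 with an SE of 0.15 (edgeR adjusted p = 0.15), and its counts are uncertain because Gm11769 overlaps it. The lysosomal carriers Slc38a7, which exports glutamine, and Slc38a9, which also senses arginine for mTORC1, both had a log2 change of -0.16 (edgeR adjusted p = 0.57 and 0.63). Slc38a1, Slc38a3 and Slc38a4 stood at 0.42, 0.33 and -0.66 with edgeR adjusted p of 0.52, 0.74 and 0.33.

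In the Slc6 family, Slc6a6 had 243, 174, 186 and 284 CPM in CB-100 and 370, 327 and 339 CPM in sham. Every CB-100 library was below the lowest sham library, and the log2 change of -0.64 had an SE of 0.21, which did not pass (edgeR adjusted p = 0.10). Slc6a6 was called lower by DESeq2 (adjusted p = 0.026) and by limma voom (adjusted p = 0.036). Its count is non-whole in 1 library, and Gm44981 overlaps its exons on the opposite strand. As the family's most abundant gene, Slc6a6 set the family sum. That sum was 28.8 ± 5.72 CPM per kilobase in CB-100 (SD, n = 4) and 43.3 ± 2.63 in sham (SD, n = 3). The other 5 tested genes were low, at most 6.21 CPM in any library. Slc6a17, a vesicular carrier of neutral amino acids known from neurons, was at 0.55 (edgeR adjusted p = 0.26). Slc6a19, the neutral amino acid carrier of gut and kidney, was at -0.58 (edgeR adjusted p = 0.28). The glycine transporter Slc6a9, the serotonin transporter Slc6a4, which carries no amino acid, and Slc6a20b, of the proline carrier group, had estimates of 0.17, 0.17 and -0.03.

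The 28 genes that did not pass the filter had at most 26 counts and at most 1.22 CPM in any library. Among them are Slc1a2, Slc1a6, Slc1a7, Slc3a1, Slc36a3, Slc38a5, Slc38a8, Slc38a11, Slc6a2, Slc6a3, Slc6a5, Slc6a7, Slc6a11, Slc6a12, Slc6a13, Slc6a14, Slc6a15, Slc6a16, Slc6a18, Slc6a20a, Slc6a21, Slc7a9, Slc7a11, Slc7a12, Slc7a13, Slc7a14 and Slc7a15. The noradrenaline and dopamine transporters (Slc6a2, Slc6a3) act mainly at nerve endings. Slc7a11 had 0.072, 0.365, 0.072 and 0.233 CPM in CB-100 and 0.677, 0.137 and 0.141 CPM in sham. Slc3a1 had 0.358, 0.091, 0.503 and 0.419 CPM in CB-100 and 0.417, 0.481 and 0.141 CPM in sham. The groups overlapped for both. In all 7 libraries 6 genes had 0 counts (Slc38a8, Slc6a3, Slc6a14, Slc6a18, Slc7a9 and Slc7a12), which allows up to 3 counts, or 0.140 to 0.274 CPM depending on the library, by counting error only.

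Genes that handle amino acids next to these carriers were read from 6 lists chosen for their function. Over all genes tested, edgeR called 1.42% higher and 2.28% lower. Of 9 transporters known to be induced by Atf4, 8 were tested, and 1 fell (Slc1a4) and 0 rose. Their median log2 change was -0.25, beside 0.03 over all genes tested. Slc1a5, Slc3a2, Slc6a9, Slc7a1, Slc7a3, Slc7a5 and Slc38a2 did not pass, and Slc7a11 was not tested. Of 26 tested genes of the amino acid response, 2 fell (Pck2 and Shmt2) and 0 rose, with a median of -0.08. Of the 26 estimates, 9 lay above 0 and 17 below. Atf4 itself had a log2 change of -0.13 (edgeR adjusted p = 0.66). Asns and Trib3, classic targets of Atf4, had -0.51 and -0.75 (edgeR adjusted p = 0.13 and 0.073). Atf5 and Ddit3 went the other way, at 0.63 and 0.44 (edgeR adjusted p = 0.15 and 0.22). The motif TGATGNAA was found in 8 of the 26 genes of this list with a promoter window, Pck2, Asns and Trib3 among them. Of 34 genes of lysosomal amino acid sensing, 0 were called in either direction by edgeR and 1 by DESeq2, and 6 (17.6%) had an unadjusted p under 0.05 by edgeR, against 23.9% of all genes tested.

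Pck2, the mitochondrial phosphoenolpyruvate carboxykinase, had 14.3, 21.1, 15.2 and 14.4 CPM in CB-100 and 95.3, 73.4 and 126 CPM in sham. The groups lay far apart, with a log2 change of -2.60 and an SE of 0.22 (edgeR adjusted p = 0.0051), and a gene model, Gm10876, overlaps its exons. Shmt2, the mitochondrial serine hydroxymethyltransferase, was also lower without overlap, at 13.3 to 17.2 CPM in CB-100 and 23.5 to 30.6 CPM in sham. By edgeR its log2 change was -0.77 with an SE of 0.16 (adjusted p = 0.037). Ndufa4l2 overlaps the exons of Shmt2.

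Of 16 tested genes of glutamate and glutamine metabolism, 2 fell (Glul and Oat) and 0 rose, with a median of -0.33. The 2 are 12.5% of the list, against 2.28% of all genes tested called lower. At an unadjusted p under 0.05 by edgeR stood 8 of the 16 (50%), against 23.9% of all genes tested. These went both ways, with log2 changes of 0.64 for Aldh4a1 and 0.91 for Abat and the others below 0. The same share was 26.9% for the amino acid response and 25% for the transporters induced by Atf4. It was 20% for glutathione and cysteine use and 12.5% for transporters of other families. Glul, the glutamine synthetase, had 1451, 884, 824 and 1216 CPM in CB-100 and 3710, 2275 and 3686 CPM in sham. The highest CB-100 library lay well below the lowest sham library, with a log2 change of -1.56 and an SE of 0.30 (edgeR adjusted p = 0.035), but its counts are non-whole in all 7 libraries and other gene models overlap it. Oat, the ornithine aminotransferase, had 35.4, 35.5, 35.9 and 32.1 CPM in CB-100 and 67.2, 71.7 and 67.1 CPM in sham. Both groups were tight, the counts were whole and no gene overlaps Oat, and the log2 change was -0.98 with an SE of 0.11 (edgeR adjusted p = 0.015).

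Of 20 genes of glutathione and cysteine use, 1 fell and 0 rose, with a median of -0.22. The gene was Gclc, the catalytic subunit of glutamate-cysteine ligase, at 15.7 to 20.2 CPM in CB-100 and 26.8 to 28.9 CPM in sham. By edgeR its log2 change was -0.68 with an SE of 0.13 (adjusted p = 0.036). Of 16 tested amino acid transporters of other families, 1 rose and 1 fell, with a median of 0.28. Slc25a38, the mitochondrial glycine carrier, rose to 24.3, 17.9, 16.3 and 15.1 CPM in CB-100, against 11.4, 8.93 and 9.54 CPM in sham, a log2 change of 0.88 with an SE of 0.20 (edgeR adjusted p = 0.048). Slc15a4, a lysosomal carrier of histidine and peptides, fell to 14.6, 12.9, 14.5 and 10.7 CPM in CB-100, against 29.5, 19.2 and 29.0 CPM in sham. This was a log2 change of -0.98 with an SE of 0.19 (edgeR adjusted p = 0.035). Gm43474 overlaps the exons of Slc15a4, whose counts are non-whole in 5 libraries. The groups did not overlap for either gene. Slc25a44, the mitochondrial carrier of branched-chain amino acids known from brown fat, was chosen for that role and had a log2 change of -0.34 (edgeR adjusted p = 0.33).

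Of these 7 called genes outside the transporter families, Pck2 stayed called without any single library. Oat lost its call without sham replicate 1 or sham replicate 3, Glul and Slc15a4 without any 1 of 5 libraries, and Shmt2, Gclc and Slc25a38 without any 1 of 6. Their log2 changes kept their sign in each of these fits, and none of the 7 was called in females alone. Shmt2, Gclc, Glul, Slc15a4 and Slc25a38 also lost their call with sex as a covariate. With the muscle score as a covariate these genes and Oat lost it (edgeR adjusted p of 0.10 to 0.19). The summed Schwann cell and nerve markers also separated the groups, and S100b of that list rose (log2 change 2.51, edgeR adjusted p = 0.035). Its part in these results was not tested.

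**Figure D5:**
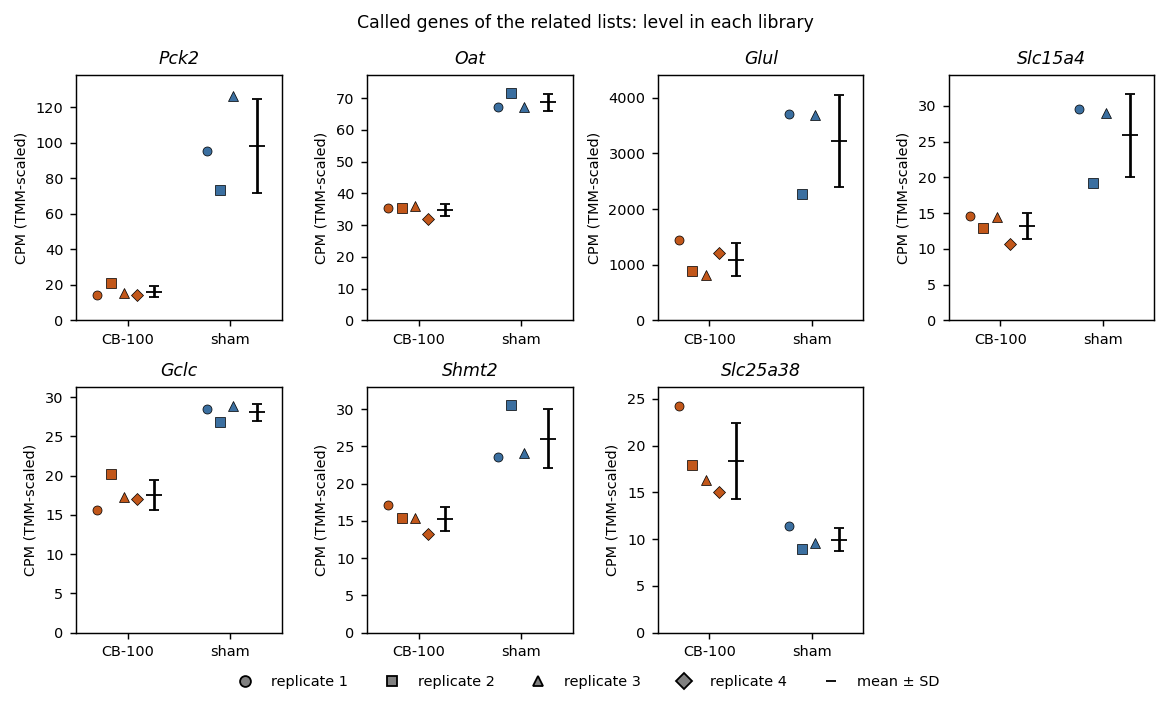
CPM in each library (points, shape by replicate, CB-100 left of sham) with mean ± SD, for the 7 called genes of amino acid handling outside the transporter families. CB-100 lies below sham for 6 genes and above it for Slc25a38, with no overlap in any panel.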

How the data were processed

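Total RNA of brown adipose tissue was sequenced with Illumina chemistry, and STAR 2.7.9a aligned the reads to the primary assembly of Ensembl release 101, per the labels' protocols. Salmon 1.5.2, featureCounts 2.0.3, Subread, limma and edgeR also stand in the submitters' processing notes, with no role. Strandedness, the kit and the counting options: not given in the sources used here. Values in the single table that the authors deposited are expected counts, without normalization. Its 55774 lines held 287 repeats, which were removed. Non-whole counts, found in 18 of the 63 transporter genes, can come from reads split over several genes, and such genes held 52.4% to 62.9% of each library's counts. Exons of 14 transporter genes overlap another gene, and reads of opposite strands may not be told apart.

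Expected counts were rounded, filtered with filterByExpr, scaled by TMM (factors 0.755 to 1.25) and tested with edgeR 4.0.16 (robust quasi-likelihood fit on the group, two-sided, R 4.3.3), with Benjamini-Hochberg adjustment over 16823 genes and a threshold of 0.05. The SE is the log2 change over the square root of F. The procedure was tested on simulated data, with no outcome given here. With 3 or 4 mice per group and a replicate coefficient of variation of 28.0%, the number of mice limits precision. Spearman correlations of log2 CPM (prior count 2) ranged over 0.951 to 0.974 inside the groups and 0.923 to 0.967 across them. No pair of libraries matched within sampling noise.

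Gene identifiers matched GENCODE M21 on GRCm38 for 99.5% of genes, which gave coordinates, overlaps and union exon length. Promoters are from RefSeq (GRCm38.p6). Groups came from the treatment label, and replicates were numbered in accession order. Named are the genes by family and role, those called, the lowest p-values, the highest levels per kilobase and those without overlap, and in each related list every called gene. A gene that this rule gives is not reported here, while counts include it. The genes, the 6 lists and the tests were chosen with earlier results of these data known. Alternatives were DESeq2 size factors, no filter, DESeq2 1.42.0, a filter of 1 CPM or more in 3 libraries, limma 3.58.1 voom with quality weights, omission of each library, females only, a covariate for sex or for a skeletal muscle score, mitochondrial, 7SL and 7SK genes left out, and a threshold of 0.1.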

Additional observations from a re-analysis of the deposited data

How the results depend on the processing

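Over the 17 alternatives, 544 of 590 values of the 35 tested genes kept their direction and their side of the threshold, 24 changed side and 22 changed sign. Slc6a4 and Slc7a3 gave no value where they missed the filter. Genes called higher were 1 (Slc43a2) with no filter on low counts, with a filter of at least 1 CPM in 3 libraries, by DESeq2 and by voom, and 3 at an adjusted p of 0.1, against 0 in edgeR. Genes called lower were 5 by DESeq2, 3 by voom, 3 at an adjusted p of 0.1, and 0 with sex as a covariate, in females only and with the muscle score as a covariate, against 1. Without single libraries they ranged from 0 to 2. Among all genes, 1826 were called by DESeq2, 1213 by voom, 1860 at an adjusted p of 0.1, 238 with sex as a covariate, 10 with the muscle score and 0 in females only, against 622; in females only, 2578 had an unadjusted p under 0.05 by edgeR. Without single libraries the count ranged from 8 to 610: leaving out a CB-100 mouse gave 97 (replicate 1), 24 (replicate 2) and 187 (replicate 3), and leaving out a sham mouse gave 14 (replicate 1), 319 (replicate 2) and 8 (replicate 3). The cause was not tested, beyond the smaller number of samples. The median log2 change ranged from -0.18 (without sham replicate 2) to 0.11. The adjusted p of Slc1a4 ranged from 0.00084 to 0.22, with the same sign throughout.

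Changes of sign were seen in 7 genes, none of them called. With 1 library left out the log2 change of Slc36a4 ranged from -0.23 to 0.022, Slc38a3 from -0.30 to 0.71, Slc7a6os from -0.018 to 0.25, Slc7a3 from -0.53 to 0.45, Slc6a4 from -0.28 to 0.52, Slc7a2 from -0.20 to 0.26 and Slc6a20b from -0.30 to 0.15. In females only Slc7a6os was -0.014 and Slc6a20b 0.23. With the muscle score Slc7a3 was 0.019, Slc6a4 -0.33 and Slc7a2 -0.020. By voom Slc6a4 was -0.22 and Slc7a2 -0.034, and with sex as a covariate Slc6a4 was -0.015.

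No paired analysis was possible because no animal code of the titles occurs in both groups.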
